A study of Mus musculus with 8 samples.

Results

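The genes described here encode variants of histone H2A in mouse germ cells. They are H2afx, H2afz, H2afv, H2afy, H2afy2 and H2afj. They were taken by gene symbol from a deposited table of 29880 genes, which held all 6, and all 6 passed the filter on low counts that left 20412 genes for testing. The study removed H3.3B, 1 of the genes for histone H3.3, from mice and asked what its loss does in spermatogenesis. It sequenced total RNA from meiotic cells (mostly pachytene spermatocytes) and post-meiotic cells (mainly round spermatids), in 2 libraries for each of 4 groups. WT animals had the genotype H3.3BWT/WT :Actin Cre WT and KO animals H3.3BKO/KO :Actin Cre WT, so every group is Actin Cre WT. All were C57BL/6 mice aged between 3 and 6 months. The KO allele was made in ES cells of another strain (129S2/SvPas), and H3f3b was lost from the whole animal, somatic neighbours of the germ cells included. For all 4 groups the labels name sodium butyrate, an inhibitor of histone deacetylases, in the medium of the cell preparation. The labels state that the tubules of a single mouse gave the RNA of a sample but do not name the animal, and the p-values measure the spread between these libraries only.

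Most H2A is made in S phase from clustered genes. Variants are made from separate genes, can also be made outside S phase and are exchanged into chromatin by dedicated complexes. H2A.X (H2afx) carries a serine near its end that ATM and ATR phosphorylate at DNA breaks, and in spermatocytes the phosphorylated form covers the silenced X and Y chromosomes. H2A.Z is made from H2afz (H2A.Z.1) and H2afv (H2A.Z.2), whose proteins are nearly the same, and sits at promoters, where SRCAP and related complexes insert it. MacroH2A1 (H2afy) and macroH2A2 (H2afy2) carry a large extra domain and mark silent chromatin such as the inactive X. H2A.J (H2afj) is a variant of mammals that differs from canonical H2A at few residues. During the development of spermatids, H2A variants are lost with the other histones as protamines take over.

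Gene counts per library ran from 57853283 to 92836630, and scaling factors from 0.922 to 1.07. H3f3b, the targeted gene, was at 554 and 568 CPM (reads of the gene scaled to the depth of its library) in WT meiotic and at 9.84 and 11.2 CPM in KO meiotic libraries, and at 217 and 237 against 6.43 and 7.70 CPM in post-meiotic libraries. Most markers matched the labelled fractions. The summed level of 13 spermatocyte genes ran from 3616 to 4276 CPM in meiotic and from 1113 to 1353 CPM in post-meiotic libraries. Of these 13, 10 were called lower and 3 higher after meiosis in either genotype. All 12 spermatid genes were higher in post-meiotic cells of either genotype, but their sum in meiotic libraries, 9090 to 12397 CPM, shows that spermatid RNA was present there too. Lists for 7 other cell types of the testis (spermatogonia, Sertoli, Leydig, peritubular and endothelial cells, leukocytes and red cells) had no gene at 0 in every library. At this depth a few reads are enough for that, so it does not tell how many such cells were present.

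Sequences of the members that bear on how they were counted and made are given first. H2afx is a single exon at chr9:44142798-44144154 of mm9, on the plus strand. Its last 30 coding bases are shown with the codon of the phosphorylated serine in capitals, and then the histone stem-loop that follows the stop codon, in capitals with 5 bases on each side.
H2afx coding end: aaggcctcgcaggccTCTcaggagtactga
H2afx stem-loop: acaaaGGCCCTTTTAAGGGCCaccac
The stem-loop, searched on the transcript strand after the stop codon as GGNNC directly followed by TTTTN and AGNNCC, lies at chr9:44143323-44143338 of mm9, begins at base 47 after the stop codon and is the element that ends the mRNAs of S-phase histones, which have no poly(A) tail. None of the other 5 members had a match in its longest coding transcript. Over all genes with a coding transcript, 56 of 22594 had one (0.248%), and 42 of these 56 are named as clustered histone genes. The libraries were made from total RNA, so transcripts with or without a poly(A) tail could be counted.

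The H2A.Z genes lie on different chromosomes, H2afz at chr3:137527451-137529886 on the plus strand and H2afv at chr11:6327229-6344446 on the minus strand of mm9. Their coding sequences are of equal length, 387 bases, and are the same at 306 of them (79.1%). The first 60 coding bases are shown with the differences between H2afz and H2afv in capitals, and below them the stretch of Gm8203, an annotated pseudogene on chromosome 6 inside Tmcc1, with any difference from H2afz in capitals.
H2afz: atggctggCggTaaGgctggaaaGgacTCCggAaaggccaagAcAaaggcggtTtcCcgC
H2afv: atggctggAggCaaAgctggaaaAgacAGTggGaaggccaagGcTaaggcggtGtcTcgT
Gm8203: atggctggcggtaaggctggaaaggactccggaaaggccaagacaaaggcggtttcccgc
H2afz and H2afv differ at 13 of these 60 bases and share no stretch of 50 coding bases, the length of a read. Gm8203 differs at 0 of the 60 and is the same as the H2afz transcript at 865 of 866 aligned bases. The authors kept reads that aligned to a single place. Of the 1020 windows of 50 bases in the longest H2afz transcript, 852 (83.5%) occur exactly elsewhere in mm9, which leaves 168 windows of that transcript to single alignments, so counts of H2afz understate its level by an amount that was not measured. No window of H2afv or H2afy had such a copy. The shares were 6.27% for H2afx, whose copies are mostly in clustered H2A genes, 2.53% for H2afj and 9.08% for H2afy2.

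The promoters of the H2A.Z genes are printed because both genes fell between stages while only H2afv was called in the KO. They are 300 bases from RefSeq (GRCm38.p6) that end 50 bases after the start of the gene, with CCAAT or its reverse complement in capitals. H2afz is at chr3:137864237-137864536 on the plus strand and H2afv at chr11:6444394-6444693 on the minus strand of that build.
H2afz promoter: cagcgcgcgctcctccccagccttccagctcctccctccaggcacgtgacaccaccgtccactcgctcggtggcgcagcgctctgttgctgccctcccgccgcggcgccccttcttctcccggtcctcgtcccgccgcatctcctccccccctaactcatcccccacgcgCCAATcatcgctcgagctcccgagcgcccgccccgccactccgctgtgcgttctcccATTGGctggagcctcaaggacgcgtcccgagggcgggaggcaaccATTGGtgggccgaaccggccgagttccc
H2afv promoter: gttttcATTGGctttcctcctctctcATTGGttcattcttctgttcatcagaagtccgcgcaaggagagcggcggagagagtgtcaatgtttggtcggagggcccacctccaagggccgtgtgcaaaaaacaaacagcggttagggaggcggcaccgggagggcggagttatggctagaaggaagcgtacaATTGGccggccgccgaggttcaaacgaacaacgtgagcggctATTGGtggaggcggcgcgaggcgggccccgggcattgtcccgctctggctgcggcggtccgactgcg
RefSeq promoters were matched for 5 of the 6 members. H2afz held 3 copies of CCAAT on either strand, H2afv 4, H2afj 3, H2afy2 1 and H2afy 0, and none of the 5 held TATAAA. Of all 32851 promoters of this length, 37.4% held CCAAT and 13.6% TATAAA on either strand. Whether promoter sequence bears on the changes of any member was not tested. The other members are at chr13:56174980-56237722 on the minus strand (H2afy), chr10:61201391-61246895 on the minus strand (H2afy2) and chr6:136756769-136758595 on the plus strand (H2afj) of mm9.

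**Figure D1:**
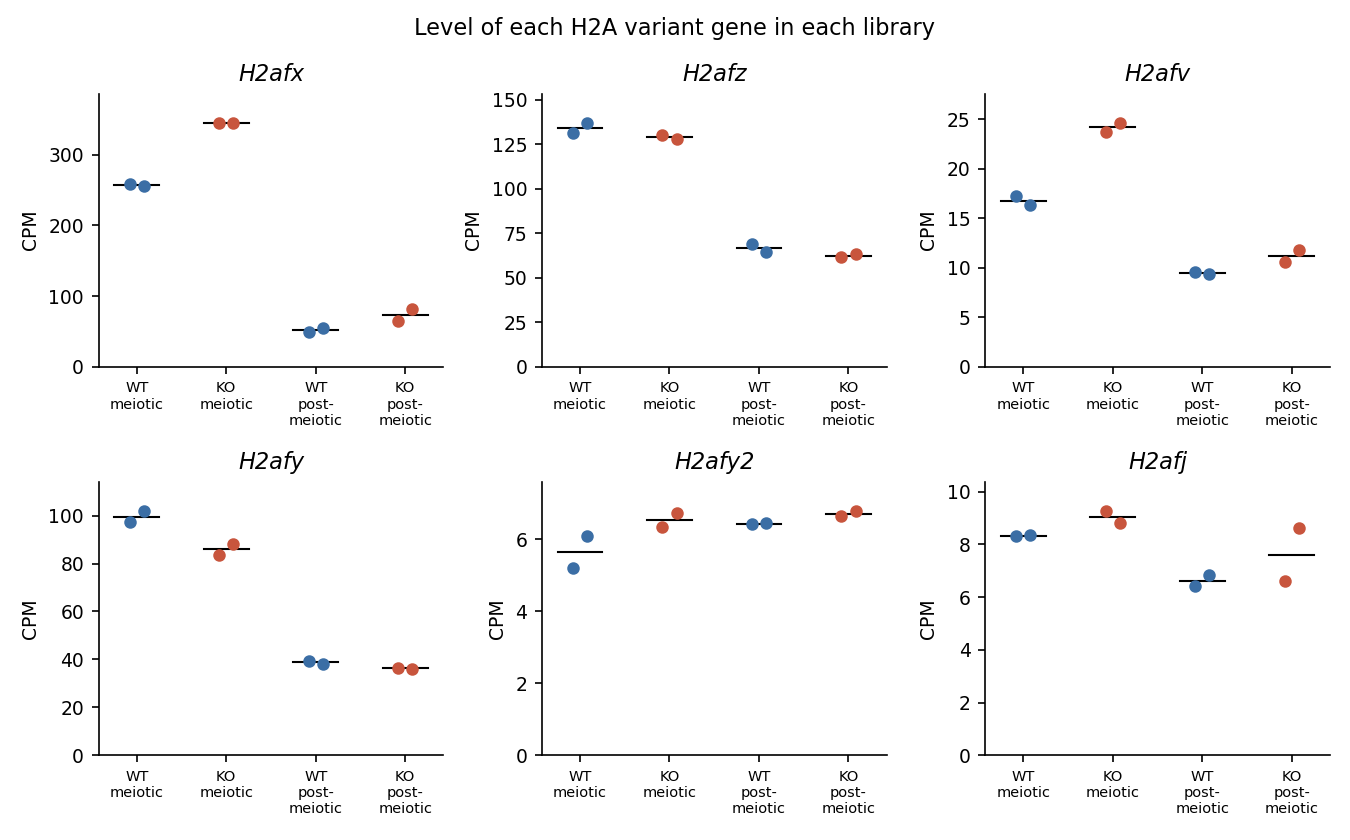
Level of each H2A variant gene (CPM, vertical axes from 0, a scale per gene) in each of the 8 libraries, grouped by genotype and stage. Points are libraries and bars the mean of 2. H2afx, H2afz, H2afv and H2afy were lower in every post-meiotic library than in any meiotic library, while H2afy2 stayed between 5.21 and 6.78 CPM.

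The order of the members by level depended on how length was counted. A form of H2afx that ends at its stem-loop would be shorter than the longest coding transcript, and its length was not tried. On the RPKM scale, which corrects reads for depth and for the length of the longest coding transcript, H2afx led in WT meiotic cells at 189 ± 1.39 (mean ± SD, n = 2), with H2afz at 125 ± 3.81 and H2afy at 48.7 ± 1.51. H2afv followed at 10.3 ± 0.370, H2afj at 4.56 ± 0.0134 and H2afy2 at 2.60 ± 0.289. No neighbours in this order overlapped between libraries. KO meiotic cells had the same order, with H2afx at 254 ± 0.230, H2afz at 121 ± 1.63 and H2afy at 42.0 ± 1.53 RPKM, followed by H2afv at 14.8 ± 0.397, H2afj at 4.94 ± 0.177 and H2afy2 at 3.01 ± 0.130.

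In WT post-meiotic cells H2afz was first at 62.4 ± 2.92 RPKM and H2afx second at 38.2 ± 2.82. Next came H2afy at 18.9 ± 0.405, H2afv at 5.78 ± 0.0973, H2afj at 3.63 ± 0.170 and H2afy2 at 2.96 ± 0.00929 RPKM. In KO post-meiotic cells H2afx, at 48.0 and 59.9 RPKM, overlapped with H2afz, at 57.7 and 59.2 RPKM, and their order could not be told. H2afy was at 17.7 ± 0.117, H2afv at 6.84 ± 0.553, H2afj at 4.17 ± 0.783 and H2afy2 at 3.08 ± 0.0466 RPKM. As a share of the summed RPKM of the 6 genes, H2afx made up 49.1% and 50.3% in WT and 57.8% and 57.9% in KO among the meiotic libraries. The post-meiotic libraries had 27.4% and 30.5% (WT) and 35.2% and 39.5% (KO). With other lengths the order changed. Per kilobase of all annotated exons, H2afx (38.2) and H2afz (37.6) were level in WT post-meiotic cells and H2afy (5.69) was no higher than H2afv (5.77). Per kilobase of windows without a copy elsewhere, H2afz was highest in all 4 groups. In meiotic cells it was at 799 in WT and 769 in KO, against 209 and 281 for H2afx. After meiosis it was at 397 and 372 against 42.3 and 59.8. This scale divides all reads of a gene by windows of its longest coding transcript alone. For H2afz that transcript has 1069 of 1776 exon bases, so reads from the others may inflate its level by an amount that was not measured.

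The first comparison asks how the genes change as WT cells pass from meiosis to the haploid stage. Of the 6 members, 4 fell (H2afx, H2afy, H2afz and H2afv) and none rose, in the quasi-likelihood test of edgeR with Benjamini-Hochberg adjustment over all 20412 genes and a limit of 0.01 on the adjusted p. Over all tested genes 32.4% were called lower and 62.0% called in either direction, so a call at this stage is common. The median log2 change of the 6 was -0.92, beside 0.01 for all tested genes. With a further limit of 1 on the absolute log2 change, the limit of the study, 3 members remained (H2afx, H2afy and H2afz), against 14.5% of all genes called lower. In a bulk fraction fewer cells of a type and less RNA per cell cannot be told apart. Other cell types also differed between the WT fractions. Leydig genes summed to 294 and 248 CPM in meiotic and to 31.8 and 21.7 CPM in post-meiotic libraries (8 of 8 lower), leukocyte genes to 10.9 and 11.5 against 65.1 and 65.6 CPM (11 of 12 higher), and peritubular and fibroblast genes to 43.6 and 39.8 against 171 and 131 CPM (10 of 10 higher). In KO cells the same counts of these lists were called in the same directions. Their part in the stage changes of the members was not tested.

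H2afx, the variant that is phosphorylated over the sex chromosomes, was at 258 and 255 CPM in WT meiotic and at 49.1 and 54.5 CPM in WT post-meiotic libraries. It fell to 0.202 of its meiotic level (log2 -2.31 ± 0.094 SE, edgeR adjusted p = 5.9e-09), and only 1.78% of tested genes had a lower log2 change. H2afy, for macroH2A1, was at 97.4 and 102 CPM and then at 39.3 and 38.2 CPM (log2 -1.36 ± 0.054, edgeR adjusted p = 1.23e-14). Both estimates were below those of the H2A.Z genes, a difference that was not tested. H2afz went from 131 and 137 CPM to 69.0 and 64.5 CPM (log2 -1.01 ± 0.051, edgeR adjusted p = 5.42e-13), and H2afv from 17.2 and 16.4 CPM to 9.56 and 9.34 CPM (log2 -0.83 ± 0.081, edgeR adjusted p = 1.25e-08). Meiotic and post-meiotic libraries did not overlap for any of these 4 genes.

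The remaining members did not pass. H2afj was at 8.32 and 8.35 CPM in meiotic and at 6.41 and 6.85 CPM in post-meiotic libraries (log2 -0.33 ± 0.11, edgeR adjusted p = 0.0126), without overlap but above the limit. H2afy2, for macroH2A2, was at 5.21 and 6.09 against 6.42 and 6.45 CPM (log2 0.19 ± 0.11, edgeR adjusted p = 0.114). Of the macroH2A genes, then, 1 was called lower after meiosis and the other was not called.

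KO cells passed through the same transition with the same 4 genes called lower. All tested genes gave 31.5% called lower and 61.0% called in either direction. H2afx went from 345 and 345 CPM to 65.2 and 81.3 CPM (log2 -2.24 ± 0.092, edgeR adjusted p = 7.81e-09), a lower log2 change than in all but 1.01% of tested genes. H2afy went from 83.7 and 88.2 CPM to 36.5 and 36.1 CPM (log2 -1.24 ± 0.054), H2afz from 130 and 128 CPM to 61.6 and 63.3 CPM (log2 -1.05 ± 0.051) and H2afv from 23.7 and 24.7 CPM to 10.6 and 11.8 CPM (log2 -1.11 ± 0.077). In these 4 genes the groups were again apart. H2afj was at 9.26 and 8.80 CPM and then at 6.61 and 8.63 CPM (log2 -0.25 ± 0.11, edgeR adjusted p = 0.0486), and H2afy2 at 6.34 and 6.74 CPM and then at 6.64 and 6.78 CPM (log2 0.03 ± 0.10, edgeR adjusted p = 0.781).

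**Figure D2:**
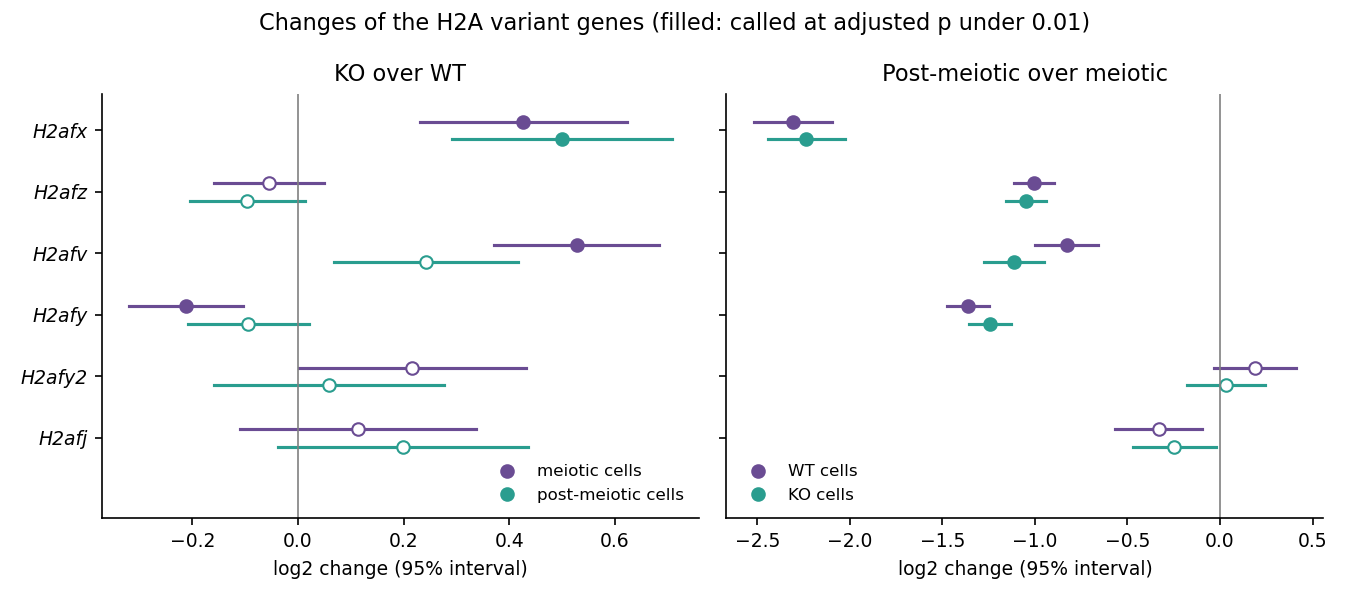
Log2 changes of the H2A variant genes with 95% intervals from the edgeR fit, KO over WT on the left (by stage) and post-meiotic over meiotic on the right (by genotype). Filled points passed an adjusted p of 0.01. Between stages 4 genes lay between -2.31 and -0.83, while the changes between KO and WT lay between -0.21 and 0.53.

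The next question was whether loss of H3.3B changed the transcripts of H2A variants in meiotic cells. H2afx and H2afv rose and H2afy fell, so 3 of 6 members were called, against 17.5% of all tested genes (8.98% higher and 8.55% lower). No change reached the fold limit of the study, which 1.32% of genes passed upward and 0.862% downward. The median log2 change of the 6 was 0.16, beside 0.00 for all tested genes. Among all called genes 51.2% were higher, a share that was 69.3% when libraries were scaled by their totals only.

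H2afv, the less abundant H2A.Z gene, was at 17.2 and 16.4 CPM in WT and at 23.7 and 24.7 CPM in KO meiotic libraries, or 1118 and 964 against 1498 and 2430 reads. It rose 1.44-fold (log2 0.53 ± 0.075, edgeR adjusted p = 2.74e-05). The KO libraries were above the WT libraries, and the call held under every alternative run, with an adjusted p of at most 0.0013. H2afz, the main H2A.Z gene, was at 131 and 137 CPM in WT and at 130 and 128 CPM in KO libraries (log2 -0.06 ± 0.050, 95% interval -0.16 to 0.05, edgeR adjusted p = 0.445). This interval lies below the estimate for H2afv, though the difference between the genes was not tested.

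H2afx was at 258 and 255 CPM in WT and at 345 and 345 CPM in KO meiotic libraries. It rose 1.34-fold (log2 0.43 ± 0.087, edgeR adjusted p = 0.00551). The groups did not overlap, but leaving out any of the 4 meiotic libraries in turn (WT 1, WT 2, KO 1 or KO 2) ended the call, with edgeR adjusted p from 0.0535 to 0.0789, while the log2 change stayed between 0.41 and 0.43. H2afy was at 97.4 and 102 CPM in WT and at 83.7 and 88.2 CPM in KO libraries, a fall to 0.863 of the WT level (log2 -0.21 ± 0.052, edgeR adjusted p = 0.00428). This call ended with libraries scaled by their totals (log2 -0.15, adjusted p = 0.0300), with no filter (0.0118), with only the meiotic libraries in the fit (0.0128), and without WT meiotic library 2 (0.0430) or KO meiotic library 1 (0.0359).

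H2afy2 was at 5.21 and 6.09 CPM in WT and at 6.34 and 6.74 CPM in KO meiotic libraries (log2 0.22 ± 0.10, edgeR adjusted p = 0.125). H2afj was at 8.32 and 8.35 against 9.26 and 8.80 CPM (log2 0.11 ± 0.11, edgeR adjusted p = 0.462). Neither passed, although the KO libraries lay above the WT libraries in each. Among cell type markers, spermatocyte genes summed to 3616 and 3621 CPM in WT and to 3857 and 4276 CPM in KO meiotic libraries, with 8 of 13 higher and 2 lower. Spermatid genes summed to 11181 and 12397 against 10654 and 9090 CPM, with 2 of 12 lower. Spermatogonial genes summed to 141 and 150 against 163 and 186 CPM, with 4 of 13 higher. Leukocyte genes summed to 10.9 and 11.5 against 17.7 and 23.9 CPM, with 4 of 12 higher. Leydig genes summed to 248 and 294 against 165 and 254 CPM, with 2 of 8 lower. Peritubular and fibroblast genes had 1 of 10 higher and 2 lower, and no Sertoli, endothelial or red cell gene was called. The part of these cells in the changes of H2afx, H2afv and H2afy was not tested.

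In post-meiotic cells 1 of 6 members, H2afx, was called between KO and WT, against 24.0% of all tested genes (12.4% higher and 11.6% lower). H2afx was at 49.1 and 54.5 CPM in WT and at 65.2 and 81.3 CPM in KO libraries and rose 1.41-fold (log2 0.50 ± 0.092, edgeR adjusted p = 0.00252). The KO libraries lay above the WT libraries, but they differed from each other by more than those of any other group. Without KO post-meiotic library 2 the log2 change was 0.32. The call ended with only the post-meiotic libraries in the fit (edgeR adjusted p = 0.0349) and without WT meiotic library 1 or 2, WT post-meiotic library 1 or KO meiotic library 1 or 2 (edgeR adjusted p from 0.0107 to 0.0176).

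H2afv was at 9.56 and 9.34 CPM in WT and at 10.6 and 11.8 CPM in KO post-meiotic libraries (log2 0.24 ± 0.083, edgeR adjusted p = 0.0274), and passed only with libraries scaled by their totals (log2 0.35, adjusted p = 0.00338). That scaling raised the median of all tested genes by 0.10. H2afz was at 69.0 and 64.5 against 61.6 and 63.3 CPM (log2 -0.10 ± 0.052, edgeR adjusted p = 0.154), and H2afy at 39.3 and 38.2 against 36.5 and 36.1 CPM (log2 -0.09 ± 0.055, edgeR adjusted p = 0.190). Both estimates turned to 0.01 with library totals. H2afy2 was at 6.42 and 6.45 against 6.64 and 6.78 CPM (log2 0.06 ± 0.10, edgeR adjusted p = 0.690), and H2afj at 6.41 and 6.85 against 6.61 and 8.63 CPM (log2 0.20 ± 0.11, edgeR adjusted p = 0.178).

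Cell markers also differed between the post-meiotic groups. Leukocyte genes summed to 65.1 and 65.6 CPM in WT and to 116 and 137 CPM in KO, with 7 of 12 higher, and peritubular and fibroblast genes to 131 and 171 against 261 and 338 CPM, with 5 of 10 higher. Red cell genes summed to 11.3 and 11.9 against 30.9 and 32.8 CPM, with 4 of 5 higher, and spermatocyte genes to 1113 and 1124 against 1301 and 1353 CPM, with 8 of 13 higher. Spermatid genes summed to 34713 and 35248 against 31570 and 32480 CPM, with 3 of 12 lower. Sertoli genes had 4 of 11 higher, spermatogonial genes 3 of 13 higher and endothelial genes 2 of 8 lower. None of 8 Leydig genes was called, though their log2 changes all lay between 0.50 and 1.05. Leydig genes summed to 21.7 and 31.8 CPM in WT and to 41.1 and 42.1 CPM in KO. The part of these cell types in the change of H2afx was not tested.

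Whether the effect of the KO differed between stages was tested as an interaction. No member was called by edgeR, nor by DESeq2, and 2.60% of all tested genes were called by edgeR. At an unadjusted p of 0.05, H2afv alone passed, with a KO effect lower by 0.29 ± 0.11 on the log2 scale in post-meiotic cells (edgeR adjusted p = 0.119), against 24.1% of all genes. For H2afx the difference was 0.07 (95% interval -0.21 to 0.36).

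**Figure D3:**
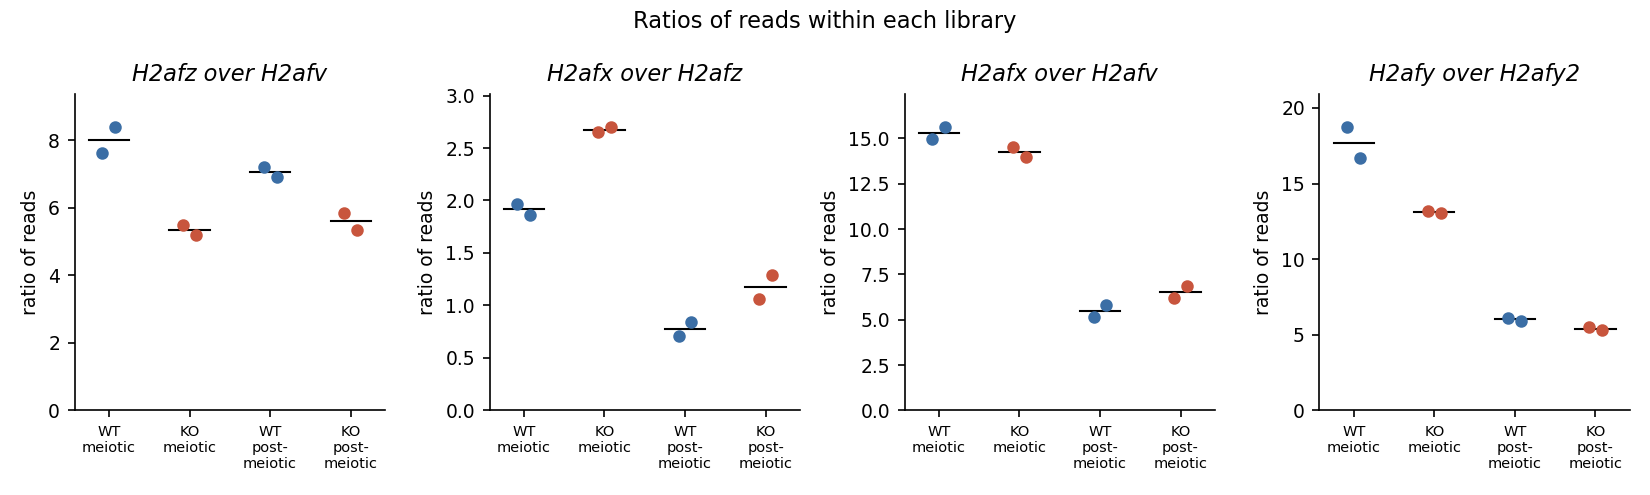
Ratio of reads between pairs of H2A variant genes within each of the 8 libraries (vertical axes from 0), which scaling between libraries cannot change. Points are libraries and bars the mean of 2. H2afz over H2afv lay between 5.19 and 5.84 in the KO libraries and between 6.91 and 8.38 in the WT libraries.

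Ratios of reads within a library show the balance of related variants without any scaling. They are given as descriptions, with no test. The ratio of H2afz to H2afv, the H2A.Z genes, was 7.63 and 8.38 in WT and 5.49 and 5.19 in KO meiotic libraries. After meiosis it was 7.21 and 6.91 (WT) and 5.84 and 5.35 (KO). All 4 KO libraries were below all 4 WT libraries. With reads of the annotated H2afz pseudogenes Gm8203 and Gm13007 added, the mean ratio was 8.01 in WT meiotic cells, and in WT post-meiotic cells it was 7.07 in place of 7.06. These pseudogenes had at most 10 reads each in a library. Reads that fit both H2afz and a copy had been dropped before counting, so this addition could not restore them. H2afv had no window with a copy, so the ratio understates H2afz by an amount that was not measured. The ratio of H2afx to H2afv was 15.3 ± 0.439 (mean ± SD, n = 2) in WT and 14.3 ± 0.396 in KO meiotic libraries, lower in both KO libraries than in either WT library, beside rises of 1.34-fold and 1.44-fold in the genes themselves. In post-meiotic libraries it was 5.13 and 5.84 in WT and 6.18 and 6.87 in KO. The ratio of H2afx to H2afz was 1.97 and 1.86 (WT) and 2.65 and 2.70 (KO) in meiotic cells, and 0.712 and 0.845 (WT) and 1.06 and 1.29 (KO) after meiosis. At each stage the KO libraries were the higher.

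The balance of the macroH2A genes differed between stages. H2afy had 18.7 and 16.7 times the reads of H2afy2 in WT meiotic and 6.12 and 5.91 times in WT post-meiotic libraries. In KO libraries the ratio was 13.2 and 13.1 in meiotic and 5.50 and 5.33 in post-meiotic cells, and so lower than in WT at either stage. With reads of the H2afy3 pseudogene added to H2afy2, the mean ratio was 3.31 in WT and 4.27 in KO meiotic cells and 2.72 and 2.66 after meiosis, so the stage difference shrank and the KO libraries were the higher in meiosis. H2afy2 shares windows with 1 other place in mm9, H2afy3, an annotated pseudogene on chromosome 15 within Pvt1, which is 92.8% identical over 2065 aligned positions. H2afy3 had more reads than H2afy2 in all 8 libraries.

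**Figure D4:**
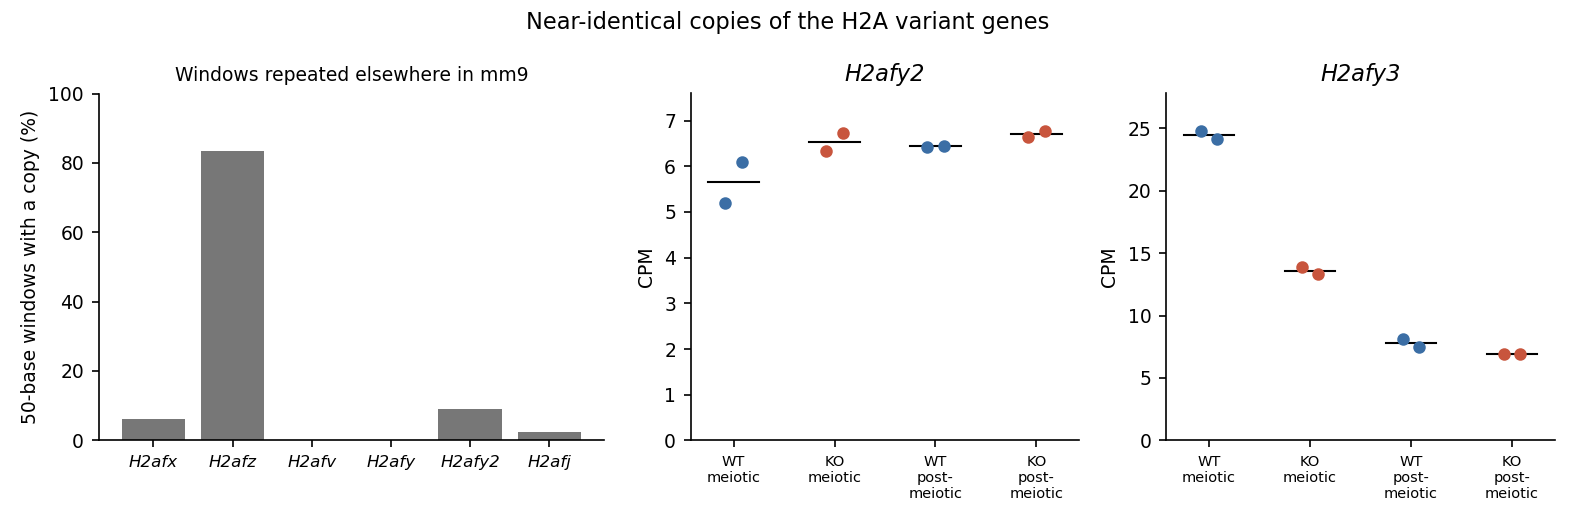
Left, share of 50-base windows of the longest coding transcript of each member that occur exactly elsewhere in mm9 (%), led by H2afz at 83.5%. Middle and right, level in each library (CPM, points, with the mean of 2 as a bar) of H2afy2 and of its annotated pseudogene H2afy3, which fell from 24.8 and 24.1 to 13.9 and 13.3 CPM in KO meiotic cells.

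H2afy3 was called in its own right. It was at 24.8 and 24.1 CPM in WT meiotic and at 13.9 and 13.3 CPM in KO meiotic libraries (log2 -0.85 ± 0.075, edgeR adjusted p = 8.89e-08). In post-meiotic libraries it was at 8.11 and 7.47 CPM in WT and at 6.94 and 6.95 CPM in KO (log2 -0.17 ± 0.087, edgeR adjusted p = 0.140). Its KO effect differed between stages (interaction 0.68 ± 0.11, edgeR adjusted p = 0.0016). With reads of H2afy3 added to H2afy2, an alternative chosen after the data were seen, the sum fell in KO meiotic cells (log2 -0.58 ± 0.065, edgeR adjusted p = 2.06e-06) and between stages in WT (log2 -1.08 ± 0.068) and KO cells (log2 -0.56 ± 0.069). This sum is dominated by H2afy3 in meiotic cells. The annotated spans of H2afy2 and H2afy also overlap those of genes on the other strand (Aifm2 and AC153136.1, and Gm17253). Whether their exons overlap was not examined, and whether counting used the strand is not given in the sources used here.

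Genes that handle H2A variants were taken from 4 lists. Of genes that load or remove H2A.Z, 21 of 22 symbols were in the table, as 22 entries because Srcap has 2 gene IDs. Between stages in WT cells 16 of these 22 fell and 1 rose (median log2 -0.60, beside 0.01 for all tested genes), and in KO cells 18 fell and none rose, where 32.4% and 31.5% of all genes were called lower. The smallest adjusted p among the falls in WT belonged to Actr5, a subunit of the INO80 remodeller (log2 -2.41 ± 0.088, edgeR adjusted p = 3.95e-15), and to Brd8, a subunit of the TIP60 complex (log2 -1.50 ± 0.057, edgeR adjusted p = 7.11e-15). Ing3, another TIP60 subunit, was the gene that rose (log2 0.50 ± 0.059, edgeR adjusted p = 2.38e-07). These genes moved mostly in the direction of H2afz and H2afv.

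In KO meiotic cells 6 of the 22 entries fell and 1 rose (median log2 -0.08, beside 0.00 for all genes, of which 8.55% were called lower and 8.98% higher). Srcap, the ATPase that inserts H2A.Z, was at 32.9 and 27.8 CPM in WT and at 15.5 and 17.8 CPM in KO meiotic libraries for the ID ENSMUSG00000053877 (log2 -0.86 ± 0.084, edgeR adjusted p = 4.35e-07). Its other ID, ENSMUSG00000090663, gave a log2 change of -0.94 ± 0.092. Trrap, the large scaffold of TIP60, fell by 0.44 ± 0.076, and Ep400, the ATPase of the same complex, by 0.27 ± 0.045. Dmap1, a subunit shared by these complexes, rose (log2 0.25 ± 0.052, edgeR adjusted p = 0.00129). In KO post-meiotic cells 5 of the 22 fell and 4 rose (11.6% and 12.4% of all genes). Actl6a had the smallest adjusted p among the falls (log2 -0.35 ± 0.048, edgeR adjusted p = 2.02e-05). Brd8 had the smallest among the rises (log2 0.27 ± 0.057, edgeR adjusted p = 0.00114). Srcap was not called there, with log2 changes of 0.10 ± 0.092 and -0.13 ± 0.11 for its IDs, and Trrap rose (log2 0.39 ± 0.082, edgeR adjusted p = 0.00212). The KO effect in post-meiotic cells minus that in meiotic cells was 0.96 ± 0.12 and 0.81 ± 0.14 for the IDs of Srcap and 0.82 ± 0.11 for Trrap on the log2 scale (edgeR adjusted p = 0.000297, 0.0024 and 0.001).

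Among 19 genes that phosphorylate, dephosphorylate or read H2A.X, 5 rose and 1 fell in KO meiotic cells (median log2 0.10, beside 0.00 for all genes, of which 8.98% were called higher and 8.55% lower). Atm, a kinase for H2A.X, was at 29.2 and 28.0 CPM in WT and at 37.8 and 44.1 CPM in KO meiotic libraries (log2 0.52 ± 0.071, edgeR adjusted p = 1.73e-05). It also rose in KO post-meiotic cells, from 23.4 and 23.9 CPM to 32.8 and 35.3 CPM (log2 0.53 ± 0.073, edgeR adjusted p = 2.09e-05). Baz1b was next by adjusted p among the rises in KO meiotic cells (log2 0.36 ± 0.060, edgeR adjusted p = 0.000161). Atr, the kinase that acts on the sex chromosomes of spermatocytes, fell in KO meiotic cells (log2 -0.24 ± 0.050, edgeR adjusted p = 0.00139), while its partner Atrip (log2 0.33 ± 0.078) and Brca1 (log2 0.28 ± 0.060), which helps to place ATR on unpaired chromosomes, rose. Between stages in WT cells 11 of the 19 fell and 5 rose, where 32.4% of all genes were called lower and 62.0% in either direction, with Atr (log2 -1.83 ± 0.052) and its activator Topbp1 (log2 -1.99 ± 0.066) among those that fell, as H2afx did. Eya4, a phosphatase of a family that acts on H2A.X, rose (log2 1.36 ± 0.054), as did the phosphatase gene Ppm1d (log2 0.78 ± 0.044). In KO post-meiotic cells 3 of the 19 rose and 4 fell (12.4% and 11.6% of all genes), and Ppm1d, which removes the phosphate, had the smallest adjusted p among the latter (log2 -0.33 ± 0.044, edgeR adjusted p = 1.26e-05).

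Of 10 genes for partners of macroH2A, 1 rose in KO meiotic cells (8.98% of all genes), Hells, a remodeller of silent chromatin (log2 0.36 ± 0.065, edgeR adjusted p = 0.000377). In KO post-meiotic cells 6 rose and 1 fell (median log2 0.28, beside 0.04 for all genes, of which 12.4% were called higher and 11.6% lower). Atrx, a remodeller that binds macroH2A, rose (log2 0.46 ± 0.083, edgeR adjusted p = 0.000258), as did Aplf, a histone chaperone (log2 0.54 ± 0.12), while Cul3, a subunit of a ubiquitin ligase for macroH2A1, fell (log2 -0.20 ± 0.046). Between stages in WT cells 8 of the 10 fell, against 32.4% of all genes, among them Supt16h, a subunit of the FACT chaperone (log2 -1.98 ± 0.065), and Parp1, which macroH2A1 can bind (log2 -1.19 ± 0.049).

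**Figure D5:**
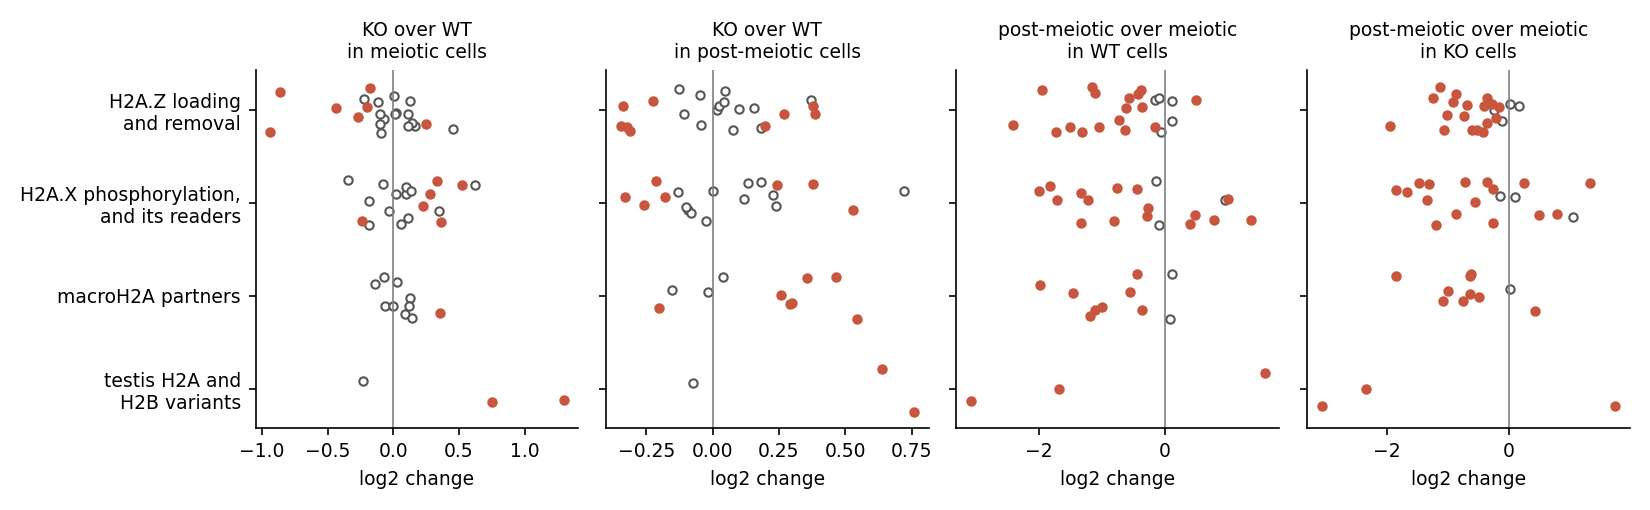
Log2 changes of the genes in 4 lists (rows) in 4 comparisons (panels, each with its own horizontal scale). Each point is a gene ID, filled where it passed an edgeR adjusted p of 0.01, and its height within a row has no meaning. Between stages most H2A.Z genes of the list lay below 0, with 16 of 22 called lower in WT cells.

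The list of testis variants of H2A and H2B had 3 of its 9 symbols in the table. Hist1h2aa, for the testis H2A variant TH2A, was at 150 and 168 CPM in WT and at 370 and 411 CPM in KO meiotic libraries (log2 1.30 ± 0.060, edgeR adjusted p = 6.24e-11), above the fold limit that no member reached. Hist1h2ba, for its partner TH2B, rose from 389 and 397 to 652 and 675 CPM (log2 0.76 ± 0.048, edgeR adjusted p = 9.74e-10). Both also rose in KO post-meiotic cells, with log2 changes of 0.64 ± 0.063 for Hist1h2aa and 0.76 ± 0.051 for Hist1h2ba. Both fell between stages in WT cells, by 1.68 ± 0.063 and 3.07 ± 0.053 on the log2 scale. H2afb1, a short H2A variant of spermatids, was instead higher after meiosis, at 342 and 352 CPM against 109 and 124 CPM in WT meiotic libraries (log2 1.57 ± 0.090, edgeR adjusted p = 1.36e-07), and its KO libraries gave no call at either stage (log2 -0.23 and -0.07).

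Genes with a pattern most like that of each member were found by the root mean square difference of centred log2 CPM over the 8 libraries, among 7695 or 7696 other named genes of at least 10 CPM on average. For H2afx they were Ublcp1, Ccdc61 and Lbr, with differences of 0.10, 0.13 and 0.13. For H2afz they were Cby1, Atp5a1 and Tbl2 (0.03 to 0.05), and for H2afv Ube2g1, Ei24 and Mars (0.07 to 0.08). For H2afy they were Zfp180, Agbl2 and Zfp286 (0.03 to 0.04). The patterns of H2afy2 were nearest to Rps12, Atp5g1 and Setdb2 (0.05) and those of H2afj to Rnf157, Atp6v0e2 and Rps28 (0.05 to 0.08). H2afx was the member whose nearest neighbour lay farthest from it, and no member was among the named neighbours of another.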

How the data were processed

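Total RNA of 8 libraries (WT and KO, meiotic and post-meiotic, 2 each) was sequenced by the authors as single-end reads of 50 bases from stranded libraries. Per the submitters' notes and the study's methods, the authors made read files with bcl2fastq 2.17.1.14, used TopHat2 2.0.14 (with Bowtie2 2.1.0) for alignment to mm9, dropped reads that aligned to several places, and deposited raw counts per Ensembl gene from HTSeq 0.6.1. The authors' own comparisons in that table (log2 values and adjusted p-values, DESeq2 1.14.1) and the tables of piRNA clusters and repeats were not used here. Counts were used as deposited, with no library left out.

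The 29880 genes were filtered (filterByExpr), scaled by TMM and fitted over all 4 groups with the robust quasi-likelihood test of edgeR 4.0.16 in R 4.3.3, with Benjamini-Hochberg adjustment over 20412 genes. A call is an adjusted p under 0.01. SE is the log2 change divided by the square root of F. Total gene counts of 57853283 or more per library left at least 338 reads on every member. Alternatives were a block for the replicate number, leaving out each library, fitting just the libraries compared, RLE factors, library totals, DESeq2 1.42.0 and no filter. Copies were found as exact 50-base windows of GENCODE transcripts in mm9 and aligned with BLAST 2.17.0. The fit was also run on counts simulated with the same spread in every gene, which checks the code and not the calls of these genes. The 6 members and the lists were chosen with earlier results of these data known. Genes named from the lists were among those of smallest adjusted p, up to 4 per direction, in a comparison. Not all of those were named, and some were also given in comparisons where they were not called.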

Additional observations from a re-analysis of the deposited data

How the results depend on the processing

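Across the 15 alternatives run, 1 of them added later, the stage falls of H2afx, H2afy, H2afz and H2afv kept direction and call in both genotypes, as did the rise of H2afv in KO meiotic cells. With single libraries left out, the number of members called between KO and WT ranged from 1 to 3 in meiotic cells, with 1 without WT meiotic library 2 or KO meiotic library 1, and from 0 to 1 in post-meiotic cells, with 0 without either meiotic library of either genotype or WT post-meiotic library 1. Where a group was left with 1 library, it was assumed to vary like the others. In post-meiotic cells 2 members were called with library totals only and 0 with only the libraries compared.

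Estimates near 0 changed sign. With library totals H2afz turned to 0.0094 (meiotic) and 0.0068 (post-meiotic) and H2afy to 0.0092 (post-meiotic) between KO and WT, and H2afy2 to -0.064 between stages in KO cells. With no filter that H2afy2 value was -0.0087, and with single libraries left out it ran from -0.011 (without KO meiotic library 1) to 0.075. H2afj between KO and WT in post-meiotic cells ran from -0.015 (without KO post-meiotic library 2) to 0.36 and its interaction from -0.13 (the same library) to 0.24. The H2afx interaction ran from -0.11 (the same library) to 0.20, with -0.033 without WT post-meiotic library 1. Library totals moved the median of all genes by -0.14 between stages in WT cells and by 0.10 between KO and WT in post-meiotic cells, and the share of higher genes among those called between KO and WT in post-meiotic cells from 51.6% to 77.2%.

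With reads of annotated copies added (chosen after the data were seen), the sum of H2afy2 and H2afy3 replaced H2afy2. This sum changed by -0.58 and -0.060 between KO and WT in meiotic and post-meiotic cells. Between stages it changed by -1.08 and -0.56 in WT and KO cells. Its interaction was 0.52, where it was the 1 member called. H2afy2 alone gave 0.22, 0.06, 0.19 and 0.03 in the first 4 of these comparisons and -0.16 for the interaction. Reads of H2afy3 had aligned to a single place, so adding them could not restore dropped reads of H2afy2. The ratio of H2afy to the sum of H2afy2 and H2afy3 was 3.31, 2.72, 4.27 and 2.66 in WT meiotic, WT post-meiotic, KO meiotic and KO post-meiotic cells. H2afj passed between stages in WT cells with library totals, with no filter, with only the libraries compared and with the replicate block (log2 -0.33, edgeR adjusted p = 0.00932), and in KO cells with library totals. The cause of these changes was not tested.

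No label says that replicate numbers pair samples, and they were not treated as pairs. The deviations of library 1 from its group mean correlated at 0.41 between WT meiotic and WT post-meiotic and at 0.10 between KO meiotic and KO post-meiotic cells, and from -0.44 to 0.10 between groups of different genotype. With the replicate number as a block the log2 change of H2afj above was the only call of a member that changed. Over all genes, calls between KO and WT ranged down to 2160 (meiotic) and 2374 (post-meiotic) with a library left out, against 3577 and 4905, and interaction calls were 1251 with no filter and as few as 32 with a library left out, against 531. With 338 to 664 reads in meiotic libraries, H2afy2 was the least deeply counted member.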
